A study of Mus musculus with 2 samples.

Results

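Rab GTPases and the genes of membrane sorting were examined in cultured immature mouse oligodendrocytes, in 1 library labelled control and 1 library labelled Seh1cKO. A gene was a member if its symbol was that of a numbered Rab, or began with Vps, Snx or Exoc and a number; Rab25 was left out. This gave 132 members of the 18650 genes listed in at least 1 library, namely 58 Rab, 33 Vps, 30 Snx and 11 Exoc genes. Precursor cells came from forebrain (cortex) of C57BL/6 pups at postnatal days 4 to 7, purified by panning on anti-GalC and anti-O4 plates in turn. Growth medium held PDGF-AA at 20 ng/ml, CNTF at 10, bFGF at 20 and NT3 at 1 ng/ml; for differentiation all of these but CNTF were left out, thyroid hormone (T3) was added at 60 nM, and day 2 was sampled. Both libraries share this strain, age and treatment, and differ in genotype: wild type in control and a conditional knockout of Seh1l in Seh1cKO, which the labels call mutant. Seh1l encodes a scaffold protein of the nuclear pore that is also a subunit of a GATOR complex. The sources used here do not give the Cre driver, the deleted exons, the number of animals or whether animals were pooled.

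Rab proteins are small GTPases that give each membrane compartment its identity: loaded with GTP, they sit on a membrane and recruit the motors, tethers and enzymes that move, dock and fuse vesicles. Vps proteins form the sorting machines of the endosome (retromer, ESCRT, HOPS and CORVET) and of the Golgi (GARP), sorting nexins (Snx) bind endosomal phosphoinositides and shape tubules, and the exocyst (Exoc) tethers vesicles at the plasma membrane. A differentiating oligodendrocyte depends on this traffic, since it delivers large amounts of membrane lipid and of proteins such as PLP to the growing myelin sheath and withdraws them again by endocytosis.

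There was 1 library per genotype, so no test of the genotype was possible, and each difference is one between 2 libraries. The libraries held 20730097 reads (control) and 20599561 reads (Seh1cKO) assigned to genes. Levels are given in CPM, reads per 1000000 reads of the library, and levels of different genes are compared in FPKM, which also divides by transcript length. The log2 ratio is log2(CPM + 1) in Seh1cKO minus that in control; the thresholds of 2-fold and 1.5-fold apply to it. Single-gene folds are ratios of CPM without the added 1, with an exact 95% interval (Clopper-Pearson) that covers counting error only. Seh1l stood at 32.1 (control) and 18.5 CPM (Seh1cKO), with a Seh1cKO to control ratio of 0.577 (0.508 to 0.656). The labelled lineage was present in both, with Olig1, Olig2, Sox10, Pdgfra, Cspg4, Gpr17 and Myrf at a summed 2614 and 2312 CPM, but its genes differed in both directions. Myrf was 4.09-fold, Gpr17 3.42-fold and Sox10 2.05-fold lower in Seh1cKO, Pdgfra was 1.77-fold and Olig2 1.31-fold higher, and Olig1 was at 864 and 873 CPM. Cspg4 was at 98.8 and 148 CPM. Sex-linked genes differed too (Xist at 0.868 and 341 CPM, Eif2s3y at 82.2 and 0.0485 CPM), so genotype and sex cannot be told apart.

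Of the 132 members, 124 averaged 1 CPM or more across the pair of libraries and are called measured, as are 13757 genes in all. The 8 below that level were Rab17, Rab19, Rab37, Rab39, Rab42, Rab44, Snx20 and Snx31, the highest being Rab39 with 19 reads in each library. Rab17, a Rab of polarised epithelia, had 0 reads in control, which allows up to 3 reads or 0.145 CPM, and 2 reads in Seh1cKO.

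Most of the sorting machinery stood at nearly the same level in both libraries. Of the 124 measured members, 119 (96.0%) were within 2-fold, 3 were higher in Seh1cKO by 2-fold or more, and 2 were lower by that much. Over all measured genes, 2.86% were higher by that much and 1.29% lower, 4.16% in either direction, so the members' 5 of 124 lie near the background. At 1.5-fold, 5 members were higher and 5 lower, and 114 (91.9%) lay within; over all genes 9.43% were higher, 3.52% lower and 87.1% within. The median log2 ratio of the members was -0.02, beside 0.07 for all measured genes. Direction was split, with 59 members higher and 65 lower, while 60.8% of all genes were higher and 39.2% lower. Scaling by the median of ratios turned this split into 44 higher and 80 lower members and into 49.2% higher over all genes. By family the medians were -0.05 for Rab (52 measured), -0.03 for Vps (33), -0.03 for Snx (28) and 0.14 for Exoc (11). In bulk RNA, fewer cells of a type and less RNA per cell cannot be told apart.

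**Figure D1:**
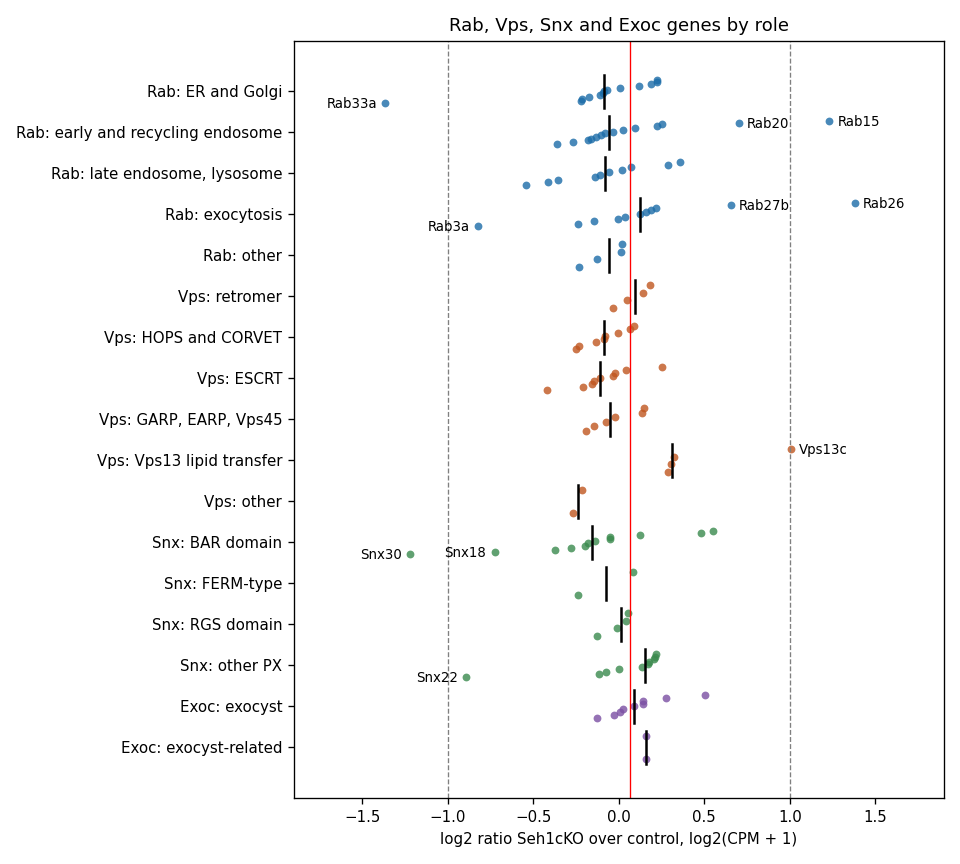
Log2 ratio of each of the 124 measured members, 1 point per gene, in 17 role groups. Black bars are group medians, the red line is the median of all measured genes (0.07), dashed lines mark 2-fold, and the 10 genes at least 1.5-fold apart are named.

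With 1 CPM added, the members at least 1.5-fold higher had lower mean levels than those at least 1.5-fold lower. The 5 members at least 1.5-fold higher (Rab26, Rab15, Vps13c, Rab20 and Rab27b) had mean levels of 1.45 to 9.96 CPM. The 5 members at least 1.5-fold lower (Rab33a, Snx30, Snx22, Rab3a and Snx18) had mean levels of 23.6 to 113 CPM. In this setting, with 1 CPM added, the ranges did not overlap. Over all measured genes the same tendency was seen, with a median of 7.97 CPM for the 1297 genes at least 1.5-fold higher and 22.2 CPM for the 484 at least 1.5-fold lower. Of the 100 members at a mean of at least 20 CPM, none was 1.5-fold higher, 5 were 1.5-fold lower and 40 were higher at all. Of the 8400 genes at that level, 355 were 1.5-fold higher, 251 were 1.5-fold lower and 4719 were higher at all. The gap between the 2 ranges depends on the added 1 CPM and on the scaling. Rab9b, at a mean of 4.16 CPM and so within the range of the higher members, was 1.60-fold lower by CPM but had a log2 ratio of -0.54. Its log2 ratio reached -0.66 under the alternatives. With a pseudocount of 0.1 CPM or median-of-ratios scaling, 6 members were at least 1.5-fold lower, Rab9b among them, and the ranges overlapped.

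**Figure D2:**
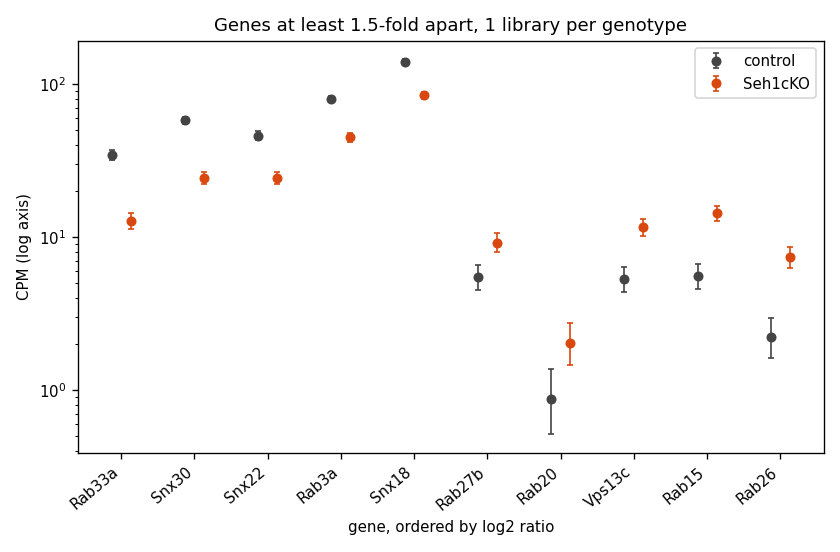
CPM (log axis) in control and Seh1cKO for the 10 members at least 1.5-fold apart, 1 library per genotype; bars are exact 95% Poisson intervals for counting error only. The 5 lower genes on the left lie at 12.8 CPM or above in both libraries, and the 5 higher genes on the right at 14.4 CPM or below.

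Snx3, a sorting nexin that works with retromer to recycle the Wnt carrier Wntless, had the highest level per length of all members, at 211 FPKM in control and 212 FPKM in Seh1cKO. It was followed in control by Rab5c, a Rab of early endosomes, at 198 and 175 FPKM, and by Vps28, an ESCRT-I subunit, at 190 and 176 FPKM. Rab7, the Rab of late endosomes, was at 180 and 182 FPKM, and Rab2a, which acts between endoplasmic reticulum and Golgi, at 134 and 114 FPKM. In Seh1cKO the second place went to Rab7, then Vps28 and Rab5c. Across the measured members the FPKM values of the 2 libraries had a rank correlation of 0.979 over 124 genes, and of 0.978 over all 13757; this is across genes, and all points share the same 2 libraries. Summed over the family, Rab genes were at 2072 FPKM in control and 1950 in Seh1cKO, Vps genes at 898 and 855, Snx genes at 826 and 773, and Exoc genes at 119 and 134.

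**Figure D3:**
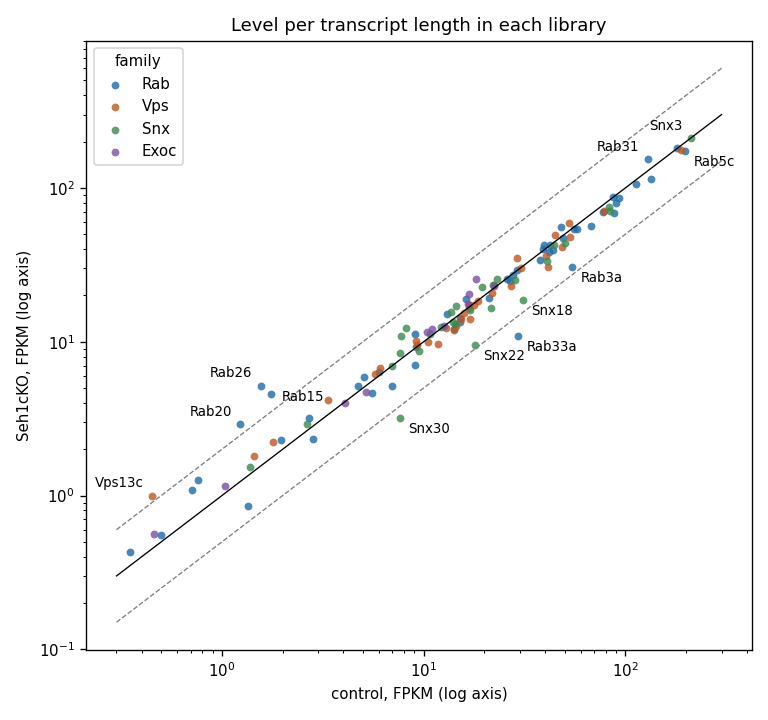
Deposited FPKM of the measured members in control (horizontal, log axis) and Seh1cKO (vertical, log axis), coloured by family, with the line of equality and dashed lines at 2-fold. Snx3 and Rab5c stand at the top near the line, Rab33a and Snx30 below the lower dashed line, and Rab26 and Rab15 above the upper one.

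Among the Rabs of the endoplasmic reticulum and Golgi, Rab33a stood apart. Rab33a (Entrez 19337, GRCm38 chromosome X, 48513663 to 48530240), a Golgi and vesicle Rab best known from neurons, stood at 34.4 (control) and 12.8 CPM (Seh1cKO), from 714 and 263 reads. It was 2.70-fold lower (2.34 to 3.12). Its paralogue Rab33b, which binds the autophagy protein Atg16l1, was at 53.0 and 49.8 CPM, so the ratio was 0.940 (0.863 to 1.02). The share of Rab33a in the summed FPKM of the pair was 66.2% in control and 43.5% in Seh1cKO. The other 11 measured genes of this group lay between -0.22 and 0.22 on the log2 scale. They include Rab1a, which drives transport from endoplasmic reticulum to Golgi (233 and 234 CPM), its paralogue Rab1b (208 and 195 CPM), and Rab6a of retrograde Golgi transport (303 and 280 CPM). The group median was -0.09, with 5 of 13 higher, where 60.8% of all genes were higher.

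Rab33a lies on the X chromosome, and so do 4 other measured members. Rab9b, a close relative of the late endosome Rab9, was at 5.11 and 3.20 CPM, 1.60-fold lower (1.16 to 2.20). Rab39b, a neuronal Rab, was at 23.9 and 17.7 CPM, 1.35-fold lower (1.18 to 1.55), and Rab9 at 54.4 and 49.2 CPM. The fifth, the retromer-linked nexin Snx12, was at 41.0 and 47.6 CPM, 1.16-fold higher (1.06 to 1.27). The median of these 5 was -0.41, while 463 measured genes of the X chromosome had a median of 0.09 with 300 higher. The part of sex in these 5 values was not tested. Without chromosomes X and Y the Rab median was 0.00.

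Early and recycling endosome Rabs were divided in direction, and most differed little. Rab4b, of the fast recycling route, was at 102 and 79.0 CPM, 1.29-fold lower (1.21 to 1.38). All 3 Rab5 genes, which govern fusion of early endosomes, were slightly lower: Rab5a 1.20-fold (1.15 to 1.27), Rab5c 1.13-fold (1.10 to 1.17) and Rab5b 1.10-fold (1.04 to 1.16). Rab31, a Rab between the trans-Golgi network and endosomes, had the highest CPM of all members at 452 and 539, 1.19-fold higher (1.16 to 1.23). Rab11a, the hub of slow recycling, was at 134 and 127 CPM. The group median was -0.06, with 6 of 14 higher, where 60.8% of all genes were higher.

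At the low end of this group were its 2 members past 1.5-fold. Rab15 (Entrez 104886, chromosome 12, 76797960 to 76822759), a regulator of the recycling endosome, stood at 5.55 (control) and 14.4 CPM (Seh1cKO), from 115 and 296 reads, 2.59-fold higher (2.08 to 3.24). Rab20, of phagosomes and endosomes, was at 0.868 and 2.04 CPM from 18 and 42 reads. Its ratio of 2.35 has an interval of 1.32 to 4.33. GENCODE places a long non-coding RNA, E230013L22Rik, on the opposite strand over 25.6% of the exonic bases of Rab20. The sources used here do not give the strand setting of the libraries, so reads of the 2 genes cannot be told apart. The same limit holds for other members named here: opposite-strand genes cover 19.0% of the exonic bases of Rab6a (Mrpl48), 18.7% of Rab33b and 18.6% of Rab39b. On the same strand, the gene model Gm21983 covers 1280 of the 1970 exonic bases of Rab4b.

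Late endosome and lysosome Rabs were all within 1.5-fold on the log2(CPM + 1) scale. Rab7 was at 392 and 397 CPM, so the ratio was 1.01 (0.982 to 1.04). Rab7b, a Rab of late endosome to Golgi transport, was at 40.6 and 31.5 CPM, 1.29-fold lower (1.16 to 1.43). Rab29, which recruits the kinase Lrrk2, was at 10.9 and 13.4 CPM, 1.24-fold higher (1.04 to 1.48). The group median was -0.08 over 10 genes.

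The Rabs of exocytosis showed the widest spread of any role group, from -0.82 for Rab3a to 1.38 for Rab26 on the log2 scale over 11 genes. Rab3a (Entrez 19339, chromosome 8, 70754703 to 70758608), which docks and primes secretory vesicles and was the leading Rab3 of both libraries, stood at 80.5 (control) and 45.0 CPM (Seh1cKO), from 1668 and 927 reads, 1.79-fold lower (1.65 to 1.94). Rab3d was at 21.5 and 18.1 CPM, Rab3b at 6.56 and 7.62 CPM and Rab3c at 4.29 and 4.76 CPM. The summed Rab3 level was 62.5 FPKM in control and 37.9 FPKM in Seh1cKO, and the share of Rab3a in it 87.2% and 80.2%. Rab26 (Entrez 328778, chromosome 17, 24529054 to 24533747), a Rab of secretory granules and synaptic vesicles, stood at 2.22 (control) and 7.38 CPM (Seh1cKO), 3.33-fold higher (2.38 to 4.73) from 46 and 152 reads. GENCODE gives Rab26 and Traf7 267 shared exonic bases on the same strand, 9.36% of Rab26; Traf7 was at 125 and 144 CPM. Rab27b, of granule docking, was at 5.50 and 9.22 CPM, 1.68-fold higher (1.32 to 2.13). The abundant Rabs of constitutive exocytosis were close together, with Rab10 at 276 and 249 CPM, Rab8a at 78.9 and 81.0 CPM and Rab13 at 39.6 and 39.4 CPM.

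The 3 members past 2-fold that have a promoter entry are shown with their window. Each window runs from 250 bases before to 50 bases after a transcript start, the most upstream for which the RefSeq promoter table (GRCm38.p6) holds a window. A gene's own span printed here can begin further upstream, and the windows of Rab33a and Snx30 lie wholly inside their spans. It is written 5′ to 3′ on the strand of the gene, with each CG dinucleotide in capitals.
Rab33a (chrX:48519035-48519334, plus strand, 7 CG): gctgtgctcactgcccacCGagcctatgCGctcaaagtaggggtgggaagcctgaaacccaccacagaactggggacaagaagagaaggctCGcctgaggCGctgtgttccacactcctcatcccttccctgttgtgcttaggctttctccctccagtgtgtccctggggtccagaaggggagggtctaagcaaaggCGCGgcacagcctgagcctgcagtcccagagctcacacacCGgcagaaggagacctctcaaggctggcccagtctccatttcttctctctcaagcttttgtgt
Snx30 (chr4:59805400-59805699, plus strand, 11 CG): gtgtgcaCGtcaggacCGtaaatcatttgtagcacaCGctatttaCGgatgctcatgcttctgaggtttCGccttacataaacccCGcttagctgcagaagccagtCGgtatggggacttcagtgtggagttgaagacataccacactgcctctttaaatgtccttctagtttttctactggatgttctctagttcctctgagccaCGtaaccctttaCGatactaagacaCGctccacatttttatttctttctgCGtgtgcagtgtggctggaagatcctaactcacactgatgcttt
Rab15 (chr12:76822475-76822774, minus strand, 38 CG): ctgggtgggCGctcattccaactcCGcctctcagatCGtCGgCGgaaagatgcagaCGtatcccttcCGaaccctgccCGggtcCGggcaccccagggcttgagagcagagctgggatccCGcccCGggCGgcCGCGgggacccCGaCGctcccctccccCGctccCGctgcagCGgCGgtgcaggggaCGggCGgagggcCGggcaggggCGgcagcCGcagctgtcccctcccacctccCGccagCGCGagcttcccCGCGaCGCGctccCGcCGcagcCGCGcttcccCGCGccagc
The window of Rab33a held 7 CG, that of Snx30 held 11 and that of Rab15 held 38. These are 3 windows, and a link between CG content and direction was not tested. A window was found for 99 of the 132 members, with a median of 22 CG, and the median was 21 over 10920 measured genes. The GENCODE transcript start nearest to the RefSeq start was 0 bases away for Rab33a, 29 for Rab15 and 190 for Snx30. The windows were also searched on both strands for the E-box CAGCTG, a form bound by basic helix-loop-helix factors such as Olig2. Rab15 held 1 copy, 30 bases before its start, and the other two held none. It was found in 16.2% of the 99 member windows, in 14.8% of the 10920 windows of measured genes, which like the members have 1 window per gene, and in 16.3% of all 32851 windows. Neither the E-box CAGATG, which reads CATCTG on the other strand, nor the SOX-type word ACAAAG, which reads CTTTGT there, was in any of the 3 windows. The former was in 12.1% of member windows, 11.3% of windows of measured genes and 17.2% of all windows. The latter was in 6.06%, 13.2% and 18.7% of them.

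All 33 Vps genes were measured, and 32 lay within 1.5-fold. The retromer, which returns cargo from endosomes, had Vps35 at 143 and 158 CPM (1.10-fold higher, 1.05 to 1.16), Vps29 at 50.9 and 57.9 CPM (1.14-fold, 1.05 to 1.24) and Vps26a at 51.0 and 52.7 CPM. Vps26b was at 124 and 121 CPM. HOPS and CORVET, which tether late and early endosomes, were grouped together with Vps33b. In this group 6 of 8 genes were lower, beside 39.2% of all genes, and the median was -0.08. Vps33b was 1 of the 2 higher genes, with a log2 ratio of 0.09. The CORVET subunit Vps8 was at 72.2 and 60.5 CPM (1.19-fold lower, 1.11 to 1.29) and Vps16 at 87.8 and 74.6 CPM. ESCRT genes, which sort ubiquitinated cargo into multivesicular bodies, were lower in 7 of 9 cases, beside the same 39.2% of all genes. Their median was -0.11. Vps37b, an ESCRT-I subunit, was at 104 and 77.4 CPM, 1.34-fold lower (1.26 to 1.43). Its exons share 918 bases, 32.9% of its own, with Hip1r on the opposite strand, which was at 111 and 78.1 CPM, so its value is uncertain without the strand setting. Vps36 of ESCRT-II went the other way, at 37.3 and 44.6 CPM (1.20-fold higher, 1.08 to 1.32). GARP and EARP subunits, together with the SM protein Vps45, lay between -0.19 and 0.15. Vps72, whose product belongs to the chromatin remodeller SRCAP and not to a sorting complex, was 1.16-fold lower (1.08 to 1.26).

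The 4 Vps13 genes were all higher in Seh1cKO. They encode very long bridge proteins that carry lipids between membranes at contact sites. Vps13c (Entrez 320528, chromosome 9, 67840316 to 67997744) stood at 5.31 (control) and 11.7 CPM (Seh1cKO), 2.20-fold higher (1.74 to 2.78) from 110 and 240 reads. On the log2(CPM + 1) scale this is 1.00, the value nearest to the 2-fold line, and it was 0.46 on the FPKM scale with 1 FPKM added. Vps13a was at 20.5 and 25.2 CPM (1.23-fold, 1.08 to 1.40), Vps13b at 19.5 and 24.7 CPM (1.26-fold, 1.11 to 1.44) and Vps13d at 53.7 and 66.6 CPM (1.24-fold, 1.14 to 1.34). These are the 4 members with transcripts over 10000 bases. The 246 measured genes over that length had a median log2 ratio of 0.15 with 183 higher, against 0.07 for all genes. The part of transcript length in the Vps13 values was not tested.

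Among the sorting nexins, those with a BAR domain, which bends membranes into tubules, had 9 of 12 lower and a median of -0.16. Of all measured genes, 39.2% were lower. Snx30 (Entrez 209131, chromosome 4, 59805131 to 59904740), which pairs with Snx4 in endosomal recycling, stood at 58.0 (control) and 24.4 CPM (Seh1cKO), 2.38-fold lower (2.14 to 2.65). Its close relative Snx7, a further partner of Snx4, was at 16.6 and 18.2 CPM and Snx4 itself at 108 and 105 CPM. The nexins of the classical tubulating complex were each slightly lower. Snx1 was 1.22-fold lower (1.13 to 1.30), Snx2 1.13-fold (1.04 to 1.23), Snx5 1.10-fold (1.05 to 1.15), Snx6 1.15-fold (1.07 to 1.23) and their relative Snx32 1.31-fold (1.17 to 1.46). The exons of Snx32 share 468 bases, 13.2% of its own, with Cfl1 on the opposite strand, a far more abundant gene at 1703 and 1578 CPM, so the value of Snx32 is uncertain.

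The Snx9 family, whose SH3 domain links membrane curvature to dynamin and actin, was divided. Snx18 stood at 141 (control) and 84.6 CPM (Seh1cKO), 1.66-fold lower (1.57 to 1.76). Snx9 was at 17.0 and 25.4 CPM, 1.49-fold higher (1.30 to 1.71), and Snx33 at 35.8 and 50.4 CPM, 1.41-fold higher (1.28 to 1.55). The summed level of the family was 47.1 FPKM in control and 41.9 FPKM in Seh1cKO, and the share of Snx18 in it 66.1% and 44.7%. Snx18 was thus the leading gene of the family in both libraries, with a smaller share in Seh1cKO.

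**Figure D4:**
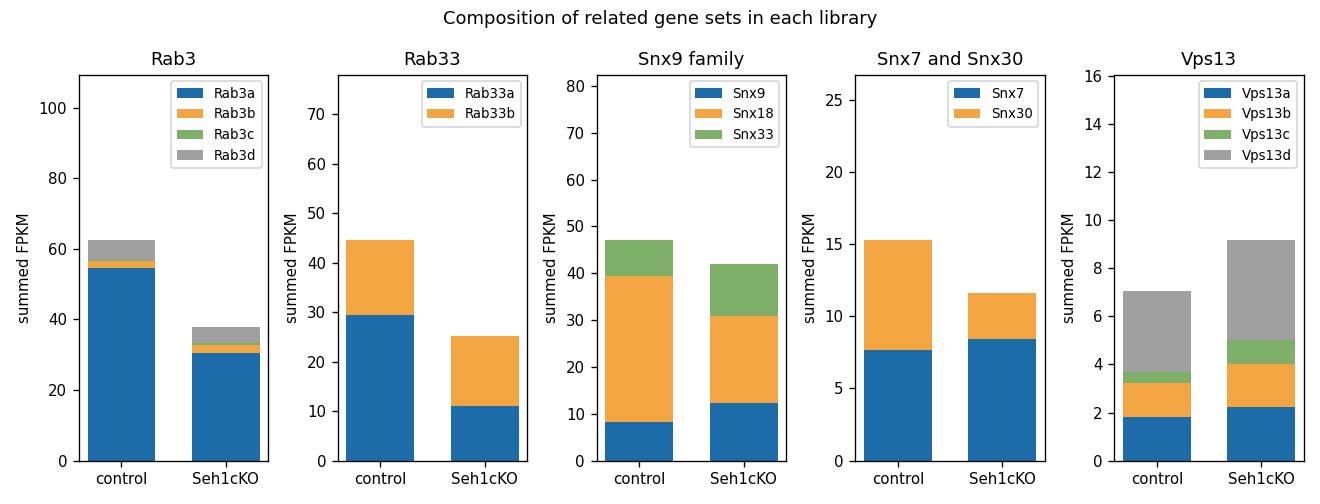
Summed FPKM of related gene sets, stacked by gene, in control and Seh1cKO; every bar starts at 0. Rab33a, Rab3a, Snx18 and Snx30 take a smaller part of their set in Seh1cKO, and all 4 Vps13 genes are larger there.

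Other nexins were within 1.5-fold but for Snx22, a small nexin with a PX domain, at 46.2 and 24.4 CPM, 1.89-fold lower (1.70 to 2.11). Its exons share 825 bases, 28.5% of its own, with Ppib on the opposite strand, an abundant gene at 401 and 343 CPM, so this value is uncertain too. Snx17, which recycles LRP1 and integrins, was at 162 and 137 CPM (1.18-fold lower, 1.12 to 1.24). Snx27, which links retromer to PDZ-binding cargo, was at 124 and 132 CPM (1.06-fold higher, 1.01 to 1.12).

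In the exocyst, 7 of 9 genes were higher and 2 lower, where 60.8% of all genes were higher. All lay within 1.5-fold, with a median of 0.09, or 0.01 under median-of-ratios scaling. Exoc4, the Sec8 subunit, which has been described in oligodendrocyte process growth, was at 68.1 and 96.8 CPM, 1.42-fold higher (1.33 to 1.52). Exoc1 (Sec3) was at 56.9 and 69.2 CPM, 1.22-fold higher (1.13 to 1.31). Exoc7, the subunit that binds phosphoinositides, had the highest level per length in control at 22.3 FPKM, and was at 22.9 FPKM in Seh1cKO, where Exoc4 was at 25.8. Exoc5 was at 59.3 and 59.6 CPM, Exoc8 at 30.6 and 30.0 CPM, and Exoc6 at 14.3 and 13.0 CPM. Subunits of 1 complex thus differed unequally between the libraries.

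Partners of the members were taken from 4 lists. Of 67 measured Rab regulators (exchange factors, GTPase-activating proteins, GDI and prenylation factors), 97.0% lay within 2-fold, beside 95.8% of all genes. Their median was 0.04. By 2-fold or more 2 were higher, near the 2.86% of all genes, and none was lower. Both were exchange factors for Rab5: Rin1 at 6.46 and 19.4 CPM, 3.00-fold higher (2.46 to 3.68), and Rin3 at 1.54 and 4.66 CPM, 3.02-fold higher (2.00 to 4.66). Sgsm1, which carries a Rab GAP domain, was 1.80-fold higher (1.53 to 2.12), and Rab3gap2, a subunit of an enzyme that acts on Rab3 and Rab18, 1.49-fold higher (1.39 to 1.59). Rab effectors had 29 of 43 genes higher, where 60.8% of all genes were higher, and a median of 0.09. In this list 7 of 43 genes were at least 1.5-fold higher, a larger share than the 9.43% of all genes, and none was 1.5-fold lower. The lowest, Sh3tc2, had a log2 ratio of -0.57. It was at 2.36 and 1.26 CPM, 1.87-fold lower (1.14 to 3.14). Within 1.5-fold lay 83.7% of the list, beside 91.9% of the members and 87.1% of all genes. Rab11fip1 was at 1.40 and 4.47 CPM (3.19-fold higher, 2.08 to 5.03), Rab11fip4 at 1.88 and 4.51 CPM, the recycling motor Myo5b at 18.4 and 34.2 CPM (1.86-fold higher, 1.64 to 2.11) and Sytl4, which binds Rab27, at 2.41 and 4.90 CPM. With a floor of 5 CPM, 3 of these 7 effectors were counted.

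Further sorting subunits and cargo receptors, 45 in all, had a median of -0.04. Past 1.5-fold in either direction were 12.9% of all genes, and 1 of these 45. That gene, Igf2r, the receptor that brings lysosomal enzymes to endosomes, was at 49.2 and 94.2 CPM, 1.92-fold higher (1.78 to 2.07). The ESCRT-0 gene Stam was at 58.6 and 45.2 CPM, 1.30-fold lower (1.19 to 1.41). SNAREs, which fuse vesicles with their target, had a median of -0.05 over 35 genes. Stx2, a plasma membrane syntaxin, was at 88.7 and 45.5 CPM, 1.95-fold lower (1.80 to 2.11), and Vamp5 was at 3.47 and 8.35 CPM, 2.40-fold higher (1.82 to 3.21). The neuronal SNARE Snap25 was at 8.39 and 14.7 CPM and Stx11, of immune cells, at 3.18 and 5.78 CPM.

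**Figure D5:**
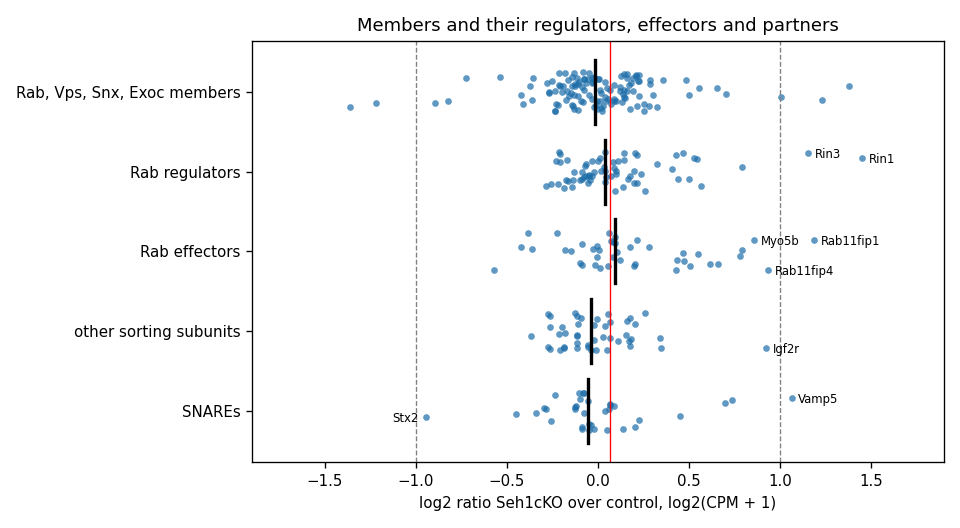
Log2 ratio of each measured gene for the 124 members and 4 lists of partners, 1 point per gene with random vertical spread; black bars are list medians, the red line the median of all measured genes, and dashed lines 2-fold. Partner genes past 0.85 in size are named; the medians lie between -0.05 and 0.09.

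Markers of other cells differed between the same libraries. Of the fibroblast and mural markers, 8 of 8 were higher, with a summed level of 201 (control) and 609 CPM (Seh1cKO), and epithelial and mesothelial markers (Krt8, Krt18, Krt7, Cdh1, Epcam, Msln) in 5 of 6, at 10.6 and 195 CPM. Astrocyte markers were lower in 5 of 7, at 8747 and 5270 CPM, with Gfap at 5200 and 2214 CPM. Neuron markers were higher in 4 of 6, at 414 and 436 CPM. Most of these sums came from the 2 lower ones, Map2 (279 and 270 CPM) and Tubb3 (91.0 and 79.6 CPM). The 4 higher ones were Syt1 (2.19-fold), Stmn2 (2.05-fold), Snap25 (1.75-fold) and Rbfox3 (1.74-fold). Endothelial markers summed to 7.86 and 21.1 CPM, but only 3 of 5 were measured, 2 higher and 1 lower. Most of the Seh1cKO sum was Cdh5, at 1.01 and 13.8 CPM. Kdr was at 5.35 and 4.95 CPM, and Cldn5 had 0 reads in control and 1 in Seh1cKO. Microglia markers summed to 6.56 and 15.1 CPM, with 3 of 5 measured and all 3 higher. Aif1, below the measured level, had 12 and 4 reads. Myelin genes were lower in 5 of 5 measured, with a sum over all 6 listed (Mobp was below 1 CPM) of 2455 and 476 CPM. The part of these cells in the members' differences was not tested.

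The authors' deposited table of differing genes names 5 members, which is 3.79% of 132, beside 4.8% of all listed genes. They are the 5 past 2-fold here, with log2 fold changes in the authors' deposited table of -1.43 for Rab33a, -1.25 for Snx30, 1.15 for Vps13c, 1.37 for Rab15 and 1.73 for Rab26. Both rest on the same 2 libraries.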

How the data were processed

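RNA sequencing was done on 1 control and 1 Seh1cKO library. Per the file headers, each deposited library table holds for every gene its expected count and its FPKM, with the transcript length in bases behind the FPKM. The authors' deposited table of selected genes gives the log2 fold change with its p-value and false discovery rate; the sources used here do not name its test. HTSeq, StringTie and mm10 are named in the submitters' processing notes without a role; the sources used here give no aligner and no strand setting.

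Expected counts, once rounded to whole reads, were scaled to library totals of 20730097 and 20599561 reads; 1 entry without a gene symbol was left out. Genes missing from a library were set to 0. Counts were not whole for 26 of the 132 members, so reads may have been split between genes, and near-identical paralogues are uncertain to that extent. Transcript length was equal in both libraries for 99 members and differed by at most 5.39%. Genes were matched by Entrez identifier to RefSeq GRCm38.p6 (132 of 132 members) and by symbol to GENCODE M21 for exon overlap, in which 17 members share at least 10% of their exonic bases with another gene. Every column of per-sample values was mapped to its library.

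With 1 library per group there was no test and no spread between samples. Intervals are exact and cover counting error only; reads carry no molecular identifiers. A count of 0 allows 3 reads, 0.145 or 0.146 CPM. Members, roles and lists were chosen with earlier results of these data known. The rule for named genes took Seh1l, every member past 2-fold or in the authors' table, in each role group the 3 with the largest absolute log2 ratio and the 2 with the highest mean FPKM, paralogues on opposite sides of 1.5-fold, the 4 with the largest absolute log2 ratio of each partner list and the 3 most abundant of each marker list. Not all of these are printed, and other genes named in the text were chosen after their values were seen. Snap25 stands in 2 lists. Alternatives were pseudocounts of 0.1 and 5 CPM, median-of-ratios and upper-quartile scaling, FPKM, no floor or a floor of 5 CPM, and no genes of chromosomes X and Y. The scripts were tested on simulated data; python 3.11.15, numpy 2.4.6 and scipy 1.17.1 were used.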

Additional observations from a re-analysis of the deposited data

How the results depend on the processing

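No paired analysis was possible because each group has 1 library. None of the 5 members past 2-fold changed sign under these alternatives. Of 977 values for 124 members under the alternatives, 949 stayed within the counting interval of the main value; of 351 medians and counts of lists, 326 stayed within theirs, or within 1.5 times for a count. Rab33a was past 2-fold in 8 of 8 settings that hold it and Snx30 in 9 of 9. Rab15 was past it in 8 of 9 and Rab26 in 7 of 8, the exception being a pseudocount of 5 CPM, and Vps13c in 5 of 9. A pseudocount of 5 CPM left 0 members at least 2-fold higher, 3 at least 1.5-fold higher, 2 effectors and 1 SNARE at least 1.5-fold higher, and a Vps13 median of 0.28. FPKM gave 3 members and 2 effectors at least 1.5-fold higher and a Vps13 median of 0.22. A floor of 5 CPM gave 3 members and 3 effectors at least 1.5-fold higher. Without chromosomes X and Y, 1 member was at least 2-fold lower, because Rab33a is on X. Median-of-ratios scaling moved the median of all genes to -0.005, of members to -0.0913, of Rab genes to -0.12, of Vps13 genes to 0.24, of Rab regulators to -0.0366 and of SNAREs to -0.13; upper-quartile scaling gave a Vps13 median of 0.27. With a pseudocount of 0.1 CPM or either rescaling, 1 effector was at least 1.5-fold lower. The 10 most abundant members of control by FPKM shared 8 with the first 10 by CPM. With 1 library per group, depth limits only counting error; variation between cultures was not measured.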
